A study of Homo sapiens with 10 samples.

Results

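Collagen genes were followed in RNA sequencing of 10 libraries labelled as neural progenitor cells (NPCs) and grown from hESCs of the established line H1 (human embryonic stem cells). Members were all genes whose symbol is COL, a number, A and a number, with at least 10 counts in at least 2 libraries. Of 44 such symbols among 60898 gene rows, 41 were kept: 11 fibrillar chains, 5 chains of type IV, the network collagen of basement membranes, and 25 others. COL10A1, COL6A5 and COL4A3 fell below the rule, with second-highest counts of 3, 4 and 7, and the lowest members above it were COL19A1 and COL6A6, each at 19, and COL4A4 at 20. The groups, with 2 libraries each, were the STAMBP knockout lines KO1 and KO2, STAMBP knockout cells given STAMBP (KO+STAMBP), STAMBP knockout cells given CFLAR (KO+CFLAR), and unedited cells (WT). STAMBP encodes a deubiquitinase of endosomal sorting, and CFLAR encodes an inhibitor of caspase-8. It is not stated which of the knockout lines carried the constructs or whether libraries came from separate cultures. P-values therefore measure the spread between libraries alone, and that spread may be technical.

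Collagens are secreted or membrane-bound proteins whose chains wind around each other in a helix, and a chain usually needs its proper partner chains to leave the cell. Fibrillar collagens (types I, II, III, V, XI, XXIV and XXVII) form or seed banded fibrils, type IV forms the sheet beneath epithelia, vessels and the neuroepithelium, and the remaining types link fibrils, anchor epithelia or span the plasma membrane. In the developing nervous system the neuroepithelium rests on a basement membrane with type IV and type XVIII collagen, whereas type I collagen is best known from mesenchyme and meninges.

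Libraries held 16495116 to 20832700 counts. Levels are counts per 1000000 (CPM) scaled by TMM, a factor that evens out library composition, and 3 counts in a library, the floor used here, equal 0.136 to 0.198 CPM. STAMBP was at 18.6 ± 1.19 CPM in the knockout libraries (SD, n = 4), 42.9 ± 3.42 CPM in KO+STAMBP, 41.5 ± 2.01 CPM in libraries labelled KO+CFLAR and 45.3 ± 2.71 CPM in WT (n = 2 each), with a log2 change of -1.28 ± 0.07 in KO vs WT (SE, edgeR adjusted p = 6.7e-10). CFLAR was at 254 ± 8.11 CPM in the knockout, 32.1 ± 0.0409 CPM in KO+STAMBP, 30.4 ± 1.35 CPM in libraries labelled KO+CFLAR and 32.3 ± 2.68 CPM in WT. Libraries labelled KO+CFLAR therefore had neither the STAMBP level of the knockout nor a CFLAR level above WT, and directions given for them rest on the label. The 8 neural progenitor markers summed to 934 to 956 CPM in the knockout, 2469 to 2486 CPM in KO+STAMBP, 2565 to 2663 CPM in libraries labelled KO+CFLAR and 5100 to 5149 CPM in WT, and 6 of the 8 reached 1 CPM in the knockout. In KO vs WT 7 of the 8 were lower and 1 was higher (median log2 change -3.76), beside 39.4% and 36.8% of all genes.

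Summed over the 41 members, collagen RNA was 4738 ± 86.9 CPM in the knockout (n = 4), 1458 ± 0.707 CPM in KO+STAMBP, 1424 ± 7.78 CPM in libraries labelled KO+CFLAR and 1663 ± 15.6 CPM in WT (n = 2 each). That was 0.436% of all counts in the knockout and 0.173% in WT. The type I chains COL1A1 and COL1A2 held 43.8 ± 0.1% of the collagen CPM in the knockout, 5.76 ± 0.0354% in KO+STAMBP, 4.52 ± 0.0849% in libraries labelled KO+CFLAR and 4.38 ± 0.113% in WT. The 4 knockout libraries lay above each of the other 6. These sums are a description, with no test over the members. In bulk RNA, fewer or more cells of a type and less or more RNA per cell cannot be told apart.

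**Figure D1:**
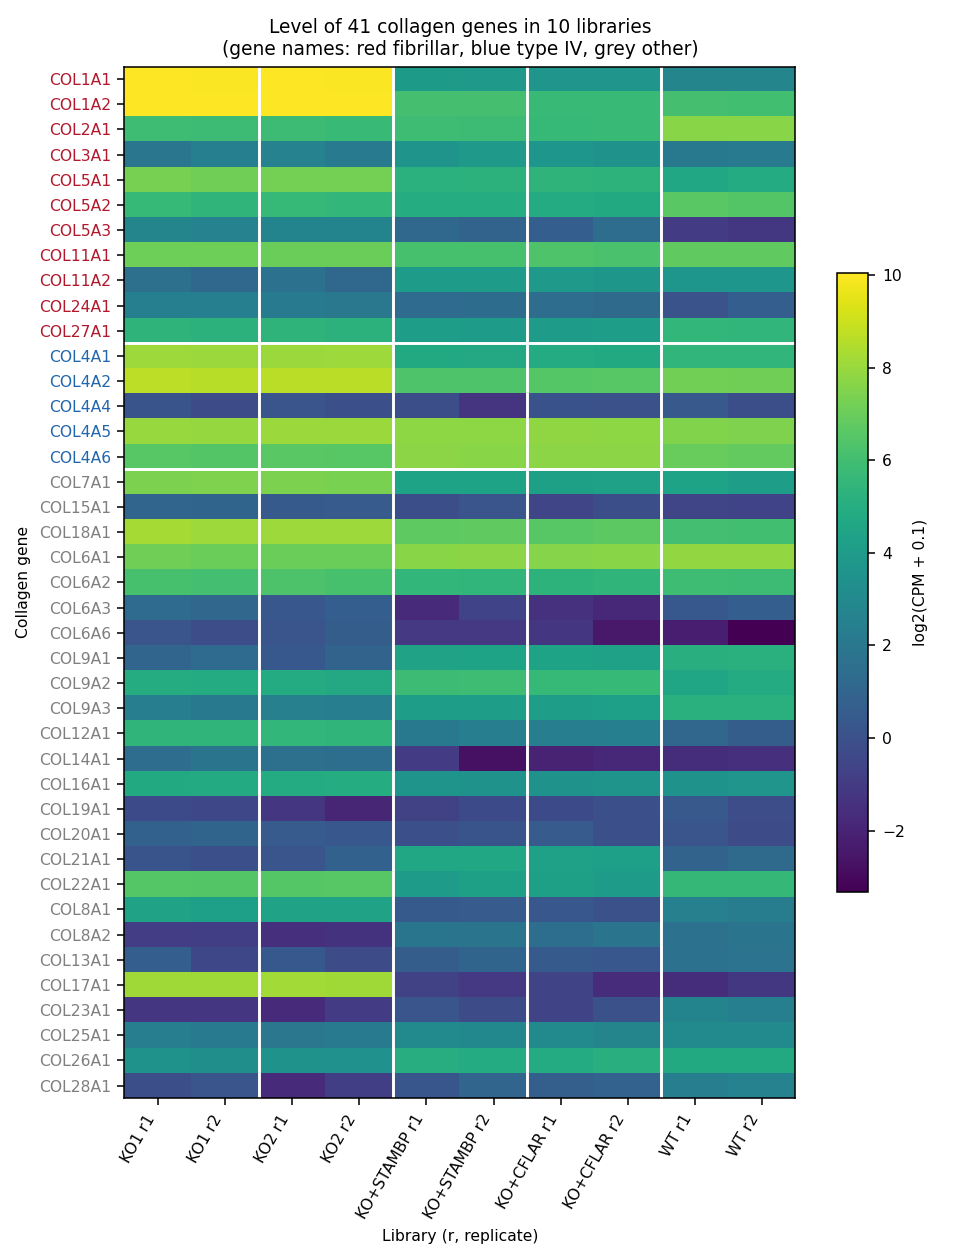
Level of each of the 41 collagen genes in each of the 10 libraries, as log2(CPM + 0.1), with fibrillar chains at the top, type IV in the middle and other types below. The type I chains, COL17A1, COL7A1, COL4A1 and COL4A2 are brightest in the 4 knockout columns, and COL21A1 is brightest in the 4 columns of the rescues.

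Levels of different genes were set side by side per kilobase of merged exon length (GENCODE 29). On that scale, fibrillar chains made up 51.5 ± 0.0816% of collagen RNA in the knockout, 20.3 ± 0.0707% in KO+STAMBP, 19.7 ± 0.495% in libraries labelled KO+CFLAR and 33.1 ± 0.0707% in WT. Type IV chains made up 14.8 ± 0.141% in the knockout, 24.9 ± 0.141% in KO+STAMBP, 27.1 ± 0.495% in libraries labelled KO+CFLAR and 18.1 ± 0.354% in WT. Taken per kilobase of the longest transcript, the type IV shares were 20.7 ± 0.141%, 29.9 ± 0.141%, 32.6 ± 0.566% and 24.1 ± 0.424% in the same order. COL1A1, at 105 ± 2.59 CPM per kilobase, and COL1A2, at 93.5 ± 0.912, led in the knockout, followed by COL17A1 at 40.7 ± 0.929. With the longest transcript as the length, COL1A2 came before COL1A1 in the knockout. In WT the highest level per kilobase was that of COL6A1, a chain of the beaded filaments of type VI, at 43.6 ± 0.218, and the next was COL2A1 at 30.8 ± 0.309, while COL1A1 was at 0.676 ± 0.00887, rank 26 of 41. COL6A1 also led in KO+STAMBP (38.7 ± 0.299) and in libraries labelled KO+CFLAR (37.5 ± 1.53), followed by COL4A6 and COL4A5, whose order turned with the longest transcript as the length.

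**Figure D2:**
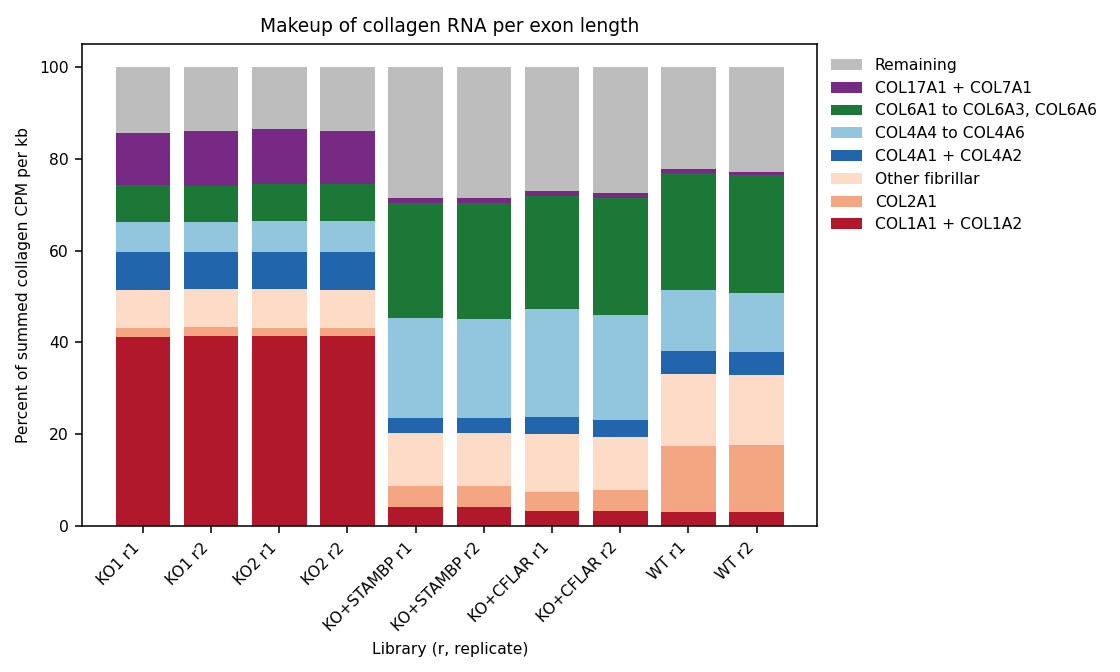
Makeup of collagen RNA in each library, as the percent of summed collagen CPM per kilobase of merged exon length held by 8 blocks of genes. COL1A1 and COL1A2 fill 41.2% to 41.5% of each knockout bar, and COL2A1 is widest in the WT bars, at 14.3% and 14.6%.

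Loss of STAMBP was examined as the mean of KO1 and KO2 against WT with edgeR's quasi-likelihood test, fitted over 21063 genes, with Benjamini-Hochberg adjusted p-values called under 0.05. Of the 41 collagen genes, 20 rose and 16 fell in the knockout. The background was high: 76.2% of all genes tested were called, 36.8% higher and 39.4% lower. At 2-fold or more, 16 collagen genes rose and 11 fell, beside 20.0% and 24.1% of all genes. The median log2 change was 0.31 over the collagens and -0.043 over all genes tested. Among fibrillar chains 6 of 11 rose and 4 fell (median 0.31), among type IV chains 3 of 5 rose and 1 fell (median 0.50), and among the others 11 of 25 rose and 11 fell (median 0.30). No class is called different from another, since no test between classes was made. Genes without a call were COL3A1 (0.15 ± 0.18), COL4A4 (-0.17 ± 0.41), COL6A3 (0.36 ± 0.35), COL9A2 (0.13 ± 0.08) and COL20A1 (0.75 ± 0.34), of which COL20A1 was called in KO1 vs WT (1.02, adjusted p = 0.0246). Scaling by library size alone moved the median of all genes by -0.175 on the log2 scale in KO vs WT, by 0.212 in KO+STAMBP vs KO and by 0.199 in KO+CFLAR vs KO.

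**Figure D3:**
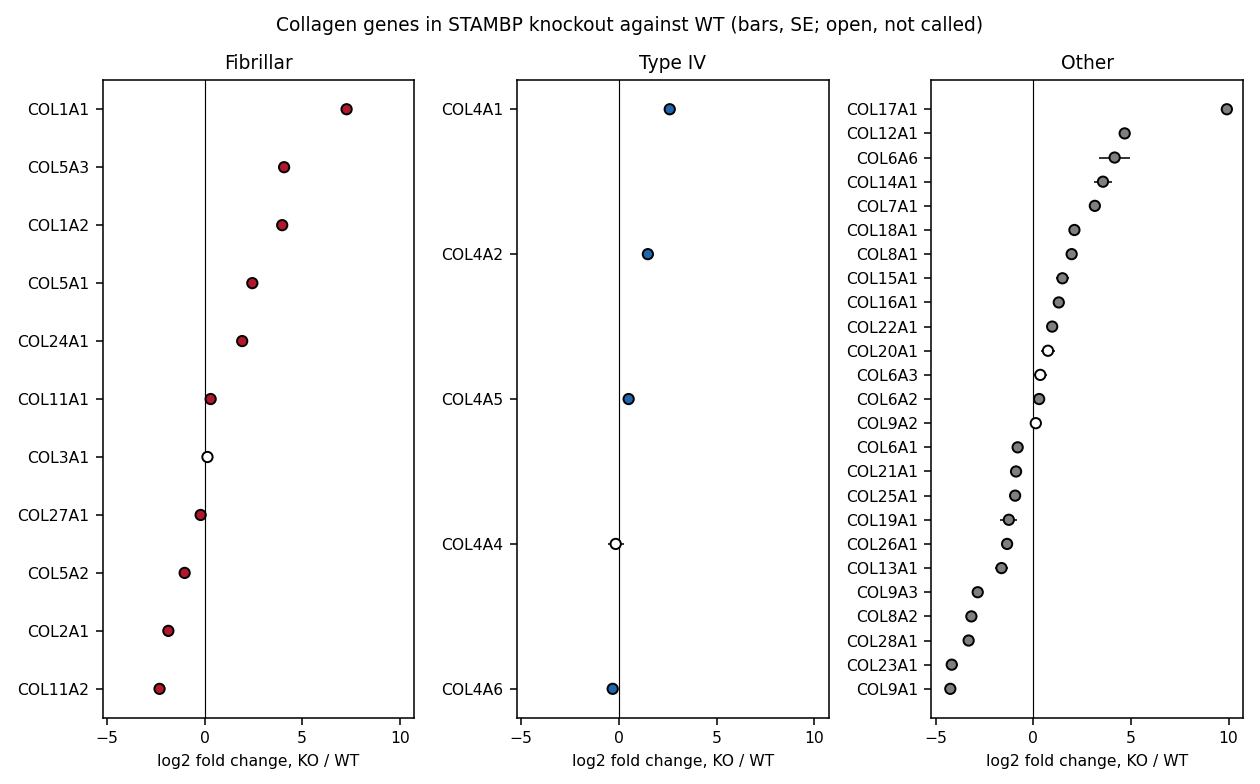
log2 fold change of each collagen gene in the STAMBP knockout (KO1 and KO2, 4 libraries) over WT (2 libraries), by class. Bars are the SE taken from the test, which understates counting error where a group has few counts. Open points are genes without a call. COL17A1 (9.91) and COL1A1 (7.28) lie farthest to the right, and COL9A1 (-4.25) and COL23A1 (-4.18) farthest to the left.

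Few genes of any kind were called between the knockout lines, and no collagen gene was. In KO1 vs KO2, 0 of 41 collagen genes were called by edgeR's quasi-likelihood test and 0 by DESeq2, beside 0.157% of all genes (0.133% higher and 0.0237% lower), and 3 had an unadjusted p under 0.05 (COL19A1, COL9A1 and COL28A1, all with higher values in KO1). Tested apart, KO1 vs WT gave 21 rises and 15 falls among the collagens, beside 72.9% of all genes called, 35.6% higher and 37.3% lower. KO2 vs WT gave 20 rises and 16 falls, beside 73.1% of all genes, 35.8% higher and 37.3% lower. These tests share the WT libraries.

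Fibrillar chains of type I had the highest CPM per kilobase of all members in the knockout. COL1A1 (ENSG00000108821, chr17:50183289-50201632, GRCh38, GENCODE 29), the chain present in pairs in the type I molecule, had 1059 and 1001 CPM in KO1, 1043 and 1019 CPM in KO2, 15.4 and 15.02 CPM in KO+STAMBP, 12.7 and 12.4 CPM in libraries labelled KO+CFLAR, and 6.58 and 6.699 CPM in WT. The 4 knockout libraries were highest, WT was lowest, and no groups overlapped. The log2 change in KO vs WT was 7.28 ± 0.05 (SE, edgeR adjusted p = 3.42e-19), a 155-fold difference. COL1A2 (ENSG00000164692, chr7:94394561-94431232), its partner, had 1051 and 1028 CPM in KO1, 1049 and 1043 CPM in KO2, 68.1 and 69.3 CPM in KO+STAMBP, 50.6 and 53.02 CPM in libraries labelled KO+CFLAR, and 68.1 and 64.4 CPM in WT. KO+STAMBP lay at or just above the higher WT library, libraries labelled KO+CFLAR lay under WT, and the knockout stood far above all. Its log2 change in KO vs WT was 3.98 ± 0.04 (edgeR adjusted p = 2.06e-18). COL1A1 counts per COL1A2 count were 0.988 ± 0.0156 in the knockout, 0.222 ± 0.00672 in KO+STAMBP, 0.242 ± 0.012 in libraries labelled KO+CFLAR and 0.1003 ± 0.00525 in WT.

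Markers of mesenchyme and fibroblasts, cells known for type I collagen, did not move in 1 direction in KO vs WT: 6 of 11 tested rose and 5 fell, beside 36.8% and 39.4% of all genes. Their sum over 12 genes was 105 to 121 CPM in the knockout, 68.96 to 74.5 CPM in KO+STAMBP, 66.0 to 69.4 CPM in libraries labelled KO+CFLAR, where PDGFRA had 0 counts, and 96.8 to 98.0 CPM in WT. The 6 that rose were FOXC1, with 41.8 to 50.7 CPM in the knockout against 4.71 and 5.18 CPM in WT, PDGFRA, with 28.4 to 32.7 CPM against 2.85 and 0.196 CPM, FOXC2, with 6.06 to 8.55 CPM against 0.0582 and 0.293 CPM, TBX18, with 4.04 to 4.43 CPM against 0 and 0.0489 CPM, TWIST1, with 2.48 to 3.44 CPM against 0.175 and 0.391 CPM, and LUM, with 6.02 to 6.94 CPM against 4.597 and 4.79 CPM. The 5 that fell were THY1, with 3.71 to 4.17 CPM in the knockout against 34.9 and 38.6 CPM in WT, PDGFRB, with 7.47 to 9.64 CPM against 20.6 and 19.2 CPM, POSTN, with 0.587 to 1.96 CPM against 8.32 and 6.85 CPM, PRRX1, with 0.0577 to 0.652 CPM against 2.15 and 2.396 CPM, and DCN. DCN, which encodes the fibril-binding proteoglycan decorin, had 5 counts over the 4 knockout libraries and was at 19.1 ± 0.542 CPM in WT. All 10 epithelial markers rose in the knockout, with sums of 8085 to 8546 CPM there, 61.4 to 63.2 CPM in KO+STAMBP, 53.5 to 55.8 CPM in libraries labelled KO+CFLAR and 31.8 to 33.7 CPM in WT. The part of these cell types in the type I difference was not tested.

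Type V chains, which help start type I fibrils, split. COL5A1 had 143 to 157 CPM in the knockout against 25.7 and 29.5 CPM in WT, and rose by 2.45 ± 0.06 on the log2 scale (edgeR adjusted p = 3.59e-14). COL5A3 had 5.93 to 6.72 CPM in the knockout against 0.407 and 0.342 CPM in WT (4.08 ± 0.31, adjusted p = 2.02e-08). COL5A2, the partner of COL5A1 in the common type V molecule, had 43.6 to 49.01 CPM in the knockout against 99.6 and 89.9 CPM in WT, and fell by 1.02 ± 0.06 (adjusted p = 6.41e-10). No knockout library overlapped WT for any of them, in a comparison where 76.2% of all genes were called. The count ratio of COL5A1 to COL5A2 was 3.24 ± 0.101 in the knockout, 1.23 ± 0.0424 in KO+STAMBP, 1.43 ± 0.0276 in libraries labelled KO+CFLAR and 0.293 ± 0.0496 in WT. COL24A1, a fibrillar chain described beside type I in bone, also rose, with 3.93 to 5.34 CPM in the knockout against 0.989 and 1.47 CPM in WT (1.93 ± 0.23, adjusted p = 2.11e-06).

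Chains of cartilage-type fibrils were lower or little changed. COL2A1 (ENSG00000139219, chr12:47972965-48004554), the type II chain, had 53.5 to 58.8 CPM in the knockout against 204 and 207 CPM in WT, and its log2 change was -1.85 ± 0.04 (edgeR adjusted p = 2.38e-14). COL11A2 had 2.15 to 3.17 CPM in the knockout against 13.04 and 12.9 CPM in WT (-2.30 ± 0.14, adjusted p = 1.28e-09). COL11A1, its partner in type XI, had 134 to 137 CPM in the knockout against 109 and 109 CPM in WT (0.31 ± 0.04, adjusted p = 8.58e-06). COL11A2 counts per COL11A1 count were thus 0.0194 ± 0.00398 in the knockout, 0.225 ± 0.00339 in KO+STAMBP, 0.181 ± 0.00424 in libraries labelled KO+CFLAR and 0.119 ± 0.00141 in WT. COL27A1 had 38.2 to 41.5 CPM in the knockout against 46.7 and 44.8 CPM in WT, a log2 change of -0.20 ± 0.06 (adjusted p = 0.00893) that was not called by DESeq2 (adjusted p = 0.146) or without WT replicate 1 (-0.18, edgeR adjusted p = 0.0655). COL3A1, the type III chain of soft tissue, had 3.74 to 6.09 CPM in the knockout against 4.07 and 4.69 CPM in WT, groups that overlapped (adjusted p = 0.472). Of 6 cartilage markers tested 3 rose and 1 fell, beside 36.8% and 39.4% of all genes. The list summed to 175 to 193 CPM in the knockout, 147.5 to 148.4 CPM in KO+STAMBP, 151.7 to 152.2 CPM in libraries labelled KO+CFLAR, where ACAN had 0 counts, and 384 to 391 CPM in WT. SOX9, also a gene of neural progenitors, gave 177 ± 7.31 CPM of that in the knockout and 385 ± 4.62 CPM in WT, so the sum mostly follows SOX9. The median log2 change of the 6 tested was 1.60. ACAN, HAPLN1 and COMP were higher in every knockout library than in WT, at levels of up to 2.48 CPM. The part of cartilage-like cells in the COL2A1 difference was not tested.

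**Figure D4:**
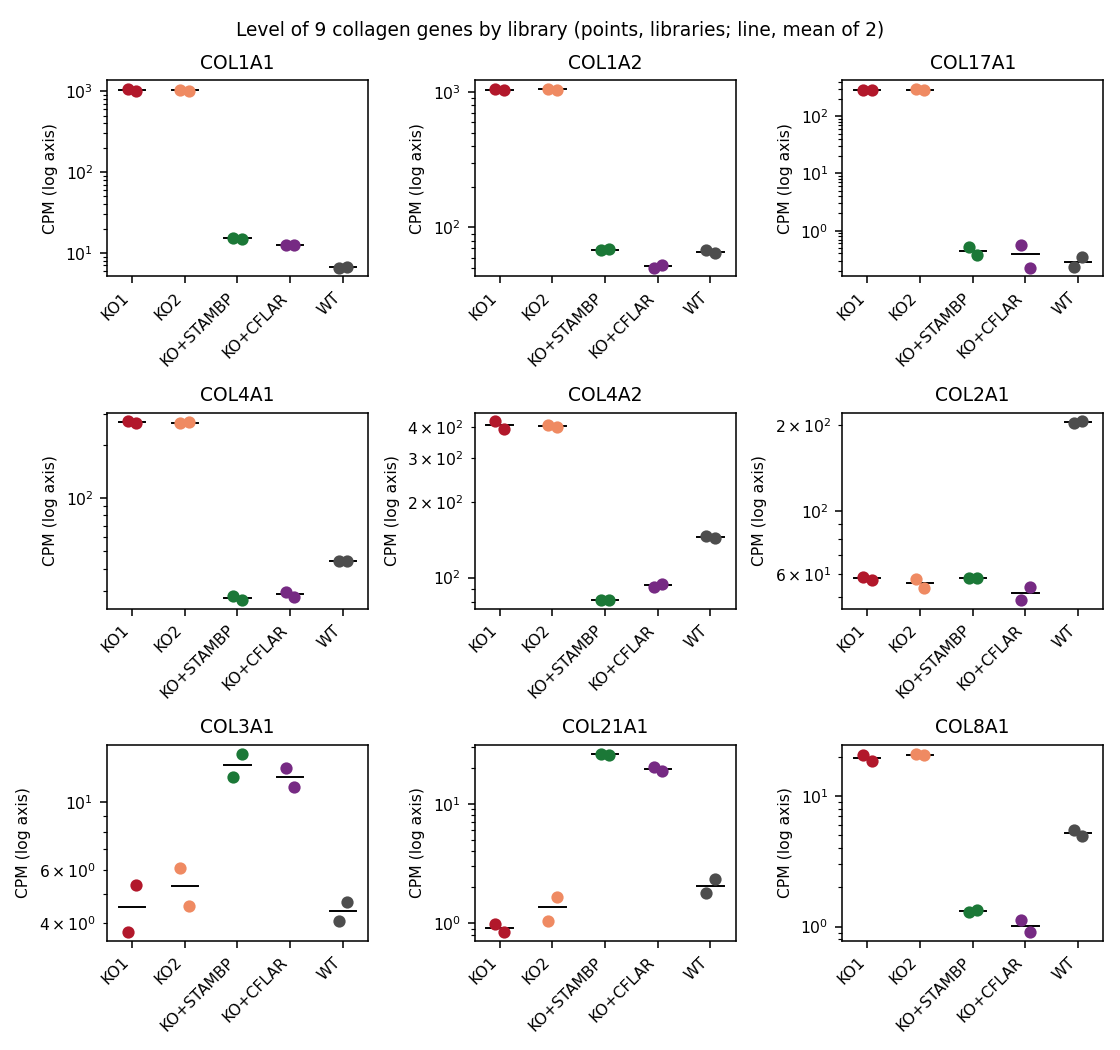
CPM of 9 collagen genes by library on log axes, with the 2 libraries of each group as points and their mean as a line. The KO1 and KO2 points of COL1A1, COL1A2 and COL17A1 stand above all others, COL2A1 is high in WT alone, and COL3A1 and COL21A1 are high in both rescues.

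Type IV chains are encoded in head-to-head pairs that share the DNA between their starts. The stretch between the RefSeq starts of COL4A1 and COL4A2 is 126 bases long and is shown because both genes start from it and both rose in the knockout. It lies at chr13:110307158-110307283 (GRCh38.p14, plus strand, the strand of COL4A2), with capitals marking the motifs CCAAT and GGGCGG.
COL4A1 to COL4A2: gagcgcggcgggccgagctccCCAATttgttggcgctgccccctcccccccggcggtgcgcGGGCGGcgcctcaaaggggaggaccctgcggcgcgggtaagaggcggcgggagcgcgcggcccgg
COL4A1 (ENSG00000187498, chr13:110148963-110307233) had 266 to 271 CPM in the knockout, 27.9 and 26.6 CPM in KO+STAMBP, 29.6 and 27.7 CPM in libraries labelled KO+CFLAR, and 44.1 and 44.2 CPM in WT. COL4A2 (ENSG00000134871, chr13:110305812-110513209) had 393 to 421 CPM in the knockout, 81.4 and 81.5 CPM in KO+STAMBP, 91.7 and 94.2 CPM in libraries labelled KO+CFLAR, and 146 and 144 CPM in WT. Both were highest in the knockout and lower in each rescue than in WT, with no overlap between knockout, rescues and WT. In KO vs WT, COL4A1 rose by 2.60 ± 0.04 on the log2 scale (edgeR adjusted p = 2.86e-16) and COL4A2 by 1.48 ± 0.04 (edgeR adjusted p = 3.41e-14). The chains did not keep 1 ratio: COL4A2 counts per COL4A1 count were 1.51 ± 0.0344 in the knockout, 2.99 ± 0.101 in KO+STAMBP, 3.25 ± 0.216 in libraries labelled KO+CFLAR and 3.29 ± 0.0368 in WT. Exons of COL4A2 overlap the antisense genes COL4A2-AS1 and COL4A2-AS2, and since no source used here gives the strand setting of the counts, reads of the overlaps cannot be told apart.

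The pair on chromosome X moved in opposite directions. The nearer of 2 RefSeq starts of COL4A6 lies 379 bases from that of COL4A5, and the 250 bases before COL4A5 are shown because they lie within this shared stretch (chrX:108439588-108439837, GRCh38.p14, plus strand, CCAAT in either orientation in capitals).
COL4A5: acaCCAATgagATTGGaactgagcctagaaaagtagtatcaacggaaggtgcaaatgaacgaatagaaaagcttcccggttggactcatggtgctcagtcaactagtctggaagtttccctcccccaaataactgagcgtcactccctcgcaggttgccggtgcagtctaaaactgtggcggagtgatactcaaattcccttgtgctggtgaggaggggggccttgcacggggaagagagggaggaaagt
COL4A5 (ENSG00000188153, chrX:108439844-108697545), which partners COL4A6 in the basement membrane of smooth muscle and some epithelia, had 244 to 261 CPM in the knockout against 184 and 177 CPM in WT and rose by 0.50 ± 0.03 (edgeR adjusted p = 3.89e-09). COL4A6 (ENSG00000197565, chrX:108155607-108439497) had 90.2 to 98.3 CPM in the knockout against 122 and 115 CPM in WT and fell by 0.32 ± 0.04 (edgeR adjusted p = 3.46e-06). With 209.5 and 205 CPM in KO+STAMBP and 211 and 213 CPM in libraries labelled KO+CFLAR, COL4A6 stood above both the knockout and WT in the rescues. COL4A6 counts per COL4A5 count were 0.373 ± 0.005 in the knockout, 0.959 ± 0.02 in KO+STAMBP, 0.938 ± 0.0267 in libraries labelled KO+CFLAR and 0.658 ± 0.00799 in WT. COL4A4, of the kidney and lens network, had 0.717 to 1.06 CPM in the knockout against 1.22 and 0.831 CPM in WT. Endothelial markers, of cells that also lay down COL4A1 and COL4A2, summed to 30.04 to 32.3 CPM in the knockout, 9.65 to 9.997 CPM in KO+STAMBP, 7.13 to 8.35 CPM in libraries labelled KO+CFLAR and 9.95 to 11.2 CPM in WT. In KO vs WT 3 of 6 tested were higher and 2 lower, beside 36.8% and 39.4% of all genes. EMCN had 0 counts in the knockout, KO+STAMBP and WT, CDH5 had 0 counts in both rescues, and the part of endothelial cells in the type IV difference was not tested.

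Among the 25 other types, the transmembrane chain COL17A1 and the anchoring fibril chain COL7A1, both of the epithelial attachment complex, were among the largest rises. Their promoters are shown for that reason. Each is the 250 bases before the RefSeq start (GRCh38.p14, minus strand), COL17A1 at chr10:104085881-104086130 and COL7A1 at chr3:48595330-48595579, with capitals for the motifs TATAAA and CCAAT and GGGCGG in either orientation.
COL17A1: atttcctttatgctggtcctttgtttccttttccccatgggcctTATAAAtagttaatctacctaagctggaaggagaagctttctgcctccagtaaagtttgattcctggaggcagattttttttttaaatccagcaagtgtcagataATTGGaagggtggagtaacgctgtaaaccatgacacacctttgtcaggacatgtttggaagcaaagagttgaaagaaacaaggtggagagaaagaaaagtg
COL7A1: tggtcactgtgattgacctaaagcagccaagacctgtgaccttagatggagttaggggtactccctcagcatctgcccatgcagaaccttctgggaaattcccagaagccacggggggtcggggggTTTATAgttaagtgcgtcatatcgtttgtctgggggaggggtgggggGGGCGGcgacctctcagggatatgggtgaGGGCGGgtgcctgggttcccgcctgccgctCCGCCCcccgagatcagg
COL17A1 (ENSG00000065618, chr10:104031286-104085957), a collagen of hemidesmosomes, had 285 and 284 CPM in KO1, 298 and 285 CPM in KO2, 0.516 and 0.374 CPM in KO+STAMBP, 0.559 and 0.227 CPM in libraries labelled KO+CFLAR, and 0.233 and 0.342 CPM in WT. It was high in the 4 knockout libraries and low in the other 6, in which groups overlapped. The log2 change in KO vs WT was 9.91 ± 0.11 (edgeR adjusted p = 9.4e-18), the largest among the 41 genes. WT held 11 counts of COL17A1 in all, so counting error exceeds this SE. Over the alternative settings the value spanned 9.68 to 10.2. COL7A1, which forms the anchoring fibrils beneath the epidermis, had 166 to 177 CPM in the knockout, 21.4 and 21.4 CPM in KO+STAMBP, 19.1 and 20.1 CPM in libraries labelled KO+CFLAR, and 21.3 and 17.4 CPM in WT, and rose by 3.15 ± 0.06 in KO vs WT (edgeR adjusted p = 3.67e-15). WT and libraries labelled KO+CFLAR overlapped for COL7A1, and the knockout stood apart. The 10 epithelial markers rose beside these chains, KRT8, a keratin of simple epithelia, to 2557 ± 87.4 CPM in the knockout against 15.2 ± 0.0544 CPM in WT, and their part in the COL17A1 and COL7A1 rise was not tested.

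Motif letters were searched on both strands in the 250 bases before each of 35116 RefSeq starts, 44 of which belong to 32 of the collagen genes. The letters TATAAA were in 8 of the 44 and in 10.7% of all promoters, CCAAT in 12 and in 32%, GGGCGG in 24 and in 42.6%, and TGANTCA in 1 and in 6.57%. The COL17A1 promoter holds TATAAA and CCAAT, the COL7A1 promoter holds TATAAA once and GGGCGG at 3 places, and the stretch between COL4A1 and COL4A2 holds CCAAT and GGGCGG once each. Matches in the printed stretches do not overlap each other, and a match is a description of letters.

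Multiplexins, basement membrane collagens whose ends release endostatin-like fragments, both rose. COL18A1 had 269 to 300.1 CPM in the knockout against 66.7 and 63.1 CPM in WT (2.10 ± 0.05, edgeR adjusted p = 1.67e-14), and COL15A1 had 1.26 to 1.98 CPM in the knockout against 0.582 and 0.538 CPM in WT (1.49 ± 0.35, adjusted p = 0.00139). Exons of COL18A1 overlap SLC19A1 on the opposite strand. Of the 10 fibril-associated (FACIT) collagens, which decorate fibrils, 4 rose and 4 fell, beside 36.8% and 39.4% of all genes. COL12A1, found on type I fibrils, had 42.5 to 46.1 CPM in the knockout against 2.04 and 1.42 CPM in WT (4.68 ± 0.13, adjusted p = 1.71e-13), and COL14A1, of the same fibrils, 2.64 to 3.39 CPM against 0.233 and 0.245 CPM (3.57 ± 0.48). COL16A1 had 27.5 to 30.5 CPM in the knockout against 11.2 and 12.3 CPM in WT (1.30 ± 0.08), and COL22A1, of muscle-tendon junctions, 89.4 to 95.6 CPM against 47.8 and 47.1 CPM (0.97 ± 0.06). All of these separated the knockout from WT without overlap, in a comparison where 76.2% of all genes were called. How many of all genes separate in this way was not counted.

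Type IX, the FACIT of type II fibrils, came apart. COL9A1 had 1.19 to 2.48 CPM in the knockout against 33.2 and 36.1 CPM in WT (-4.25 ± 0.12, edgeR adjusted p = 1.06e-13), and COL9A3 had 4.11 to 5.56 CPM in the knockout against 36.02 and 35.99 CPM in WT (-2.85 ± 0.09, adjusted p = 5.95e-13). COL9A2 had 27.2 to 31.4 CPM in the knockout against 23.8 and 29.6 CPM in WT, which overlapped. Its log2 change of 0.13 ± 0.08 had no call (edgeR adjusted p = 0.159), and was -0.049 with library size alone, -0.027 without WT replicate 1 and 0.30 without WT replicate 2 (adjusted p = 0.00651). COL9A2 counts per COL9A1 count were 17.01 ± 5.44 in the knockout, 2.75 ± 0.0304 in KO+STAMBP, 2.39 ± 0.147 in libraries labelled KO+CFLAR and 0.769 ± 0.0733 in WT. The other FACIT chains that fell were low in both groups, COL19A1 with 0.173 to 0.716 CPM in the knockout against 1.22 and 0.782 CPM in WT and COL21A1 with 0.847 to 1.67 CPM in the knockout against 1.804 and 2.35 CPM in WT. Tested by line, COL19A1 was -0.53 in KO1 vs WT without a call (edgeR adjusted p = 0.328) and -1.98 in KO2 vs WT with one (adjusted p = 0.00578), and the difference between the lines had no call (adjusted p = 0.849). The pooled falls of 1.25 ± 0.43 and 0.88 ± 0.22 lost the call when 1 library was left out: COL19A1 without WT replicate 1 (-0.92, edgeR adjusted p = 0.174) or KO2 replicate 2 (-1.05, adjusted p = 0.0621), and COL21A1 without WT replicate 2 (-0.67, adjusted p = 0.0557).

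Chains of type VI, the beaded filaments of many tissues, moved apart as well. COL6A1 had 130.0 to 139.9 CPM in the knockout against 232 and 233 CPM in WT (-0.80 ± 0.04, edgeR adjusted p = 4.3e-11), while COL6A2 had 65.6 to 78.05 CPM in the knockout against 59.2 and 57.8 CPM in WT (0.30 ± 0.06, adjusted p = 0.000225, but 0.0643 with library size alone). COL6A2 counts per COL6A1 count were 0.5399 ± 0.0379 in the knockout, 0.219 ± 0.00686 in KO+STAMBP, 0.205 ± 0.00269 in libraries labelled KO+CFLAR and 0.251 ± 0.0058 in WT. COL6A3, the remaining chain of the common type VI molecule, had 1.12 to 2.48 CPM in the knockout against 1.16 and 1.52 CPM in WT, which overlapped. COL6A6 had 72 counts in the knockout and 2 in WT, a ratio of 20.5 with a 95% counting interval of 5.49 to 173. The hexagonal network chains went opposite ways, COL8A1 with 18.7 to 21.1 CPM in the knockout against 5.47 and 4.94 CPM in WT (1.96 ± 0.12) and COL8A2 with 0.265 to 0.456 CPM against 3.08 and 3.37 CPM (-3.17 ± 0.26).

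Apart from COL17A1, the transmembrane collagens fell. COL23A1 had 0.198 to 0.404 CPM in the knockout against 6.46 and 5.28 CPM in WT (-4.18 ± 0.31, edgeR adjusted p = 1.35e-08), COL13A1 0.652 to 1.49 CPM against 3.03 and 3.33 CPM (-1.63 ± 0.31), and COL25A1, a neuronal collagen known from motor nerve targeting in the mouse, 3.84 to 5.18 CPM against 8.44 and 8.41 CPM (-0.93 ± 0.15). COL28A1, described in peripheral glia of the mouse, had 0.198 to 1.04 CPM in the knockout against 5.24 and 6.01 CPM in WT (-3.31 ± 0.30), and COL26A1 10.04 to 11.5 CPM against 27.9 and 27.5 CPM (-1.34 ± 0.08). For none of these 5 genes did a knockout library reach the WT level. The share of all genes so separated was not counted, and 76.2% of all genes were called in KO vs WT. The 8 neuron markers were all lower in the knockout, beside 39.4% of all genes. They summed to 820.1 to 843 CPM in the knockout, 5552 to 5609 CPM in KO+STAMBP, 5591 to 5688 CPM in libraries labelled KO+CFLAR and 3864 to 3943 CPM in WT, and their part in the falls of these collagens was not tested.

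Genes that make, fold and cross-link collagen were read from lists chosen with earlier results of these data known, beside the 36.8% higher and 39.4% lower of all genes. Of 14 prolyl and lysyl modification genes, which hydroxylate and glycosylate the chains, 13 rose and 1 fell in the knockout (median log2 change 0.95). The prolyl 4-hydroxylase subunits P4HA2 and P4HB rose by 3.40 ± 0.08 and 1.22 ± 0.03, the prolyl 3-hydroxylase P3H2 by 2.01 ± 0.05, and the galactosyltransferase COLGALT2 fell by 1.78 ± 0.05. Of 15 folding and export genes 13 rose and 2 fell (median 0.88). The collagen-binding glycoprotein SPARC rose by 1.66 ± 0.03, the coat protein SEC24D by 2.78 ± 0.05, the chaperone HSPA5 by 1.33 ± 0.03 and the export factor MIA2 by 2.51 ± 0.08, while CANX fell by 0.11 ± 0.03 and FKBP7 by 0.38 ± 0.11. Of 7 cross-linking genes 6 rose and 1 fell (median 4.14). The lysyl oxidase LOX was at 113 ± 3.12 CPM in the knockout and 4.16 ± 0.279 CPM in WT (4.75 ± 0.08), LOXL2 at 150.4 ± 3.44 CPM in the knockout and 8.499 ± 0.497 CPM in WT (4.14 ± 0.07), and the transglutaminase TGM2 at 101 ± 3.05 CPM in the knockout and 0.779 ± 0.133 CPM in WT (7.02 ± 0.11). PXDN, a peroxidase that cross-links type IV, rose by 1.06 ± 0.03, and LOXL3 fell by 1.88 ± 0.10 (edgeR adjusted p = 2.58e-10).

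Lists of genes that trim, bind or cleave collagen were mixed, beside the 36.8% higher and 39.4% lower of all genes. Of 8 propeptide removal genes 2 rose and 3 fell (median 0.33), with BMP1, the C-proteinase, up by 1.92 ± 0.06, ADAMTS14 up by 2.83 ± 0.44, TLL2 at -1.84 ± 0.20, and ADAMTS3, an N-proteinase of procollagen, at 3.86 ± 0.639 CPM in the knockout and 122 ± 2.58 CPM in WT (-5.00 ± 0.08). Of 13 basement membrane partners 8 rose and 4 fell (median 1.15): HSPG2, which encodes perlecan, rose by 3.58 ± 0.05, and the laminin chains LAMA5 and LAMB1 by 3.03 ± 0.05 and 2.81 ± 0.04, against -6.43 ± 0.10 for SMOC1, -2.62 ± 0.11 for FREM1, -0.90 ± 0.04 for LAMA1 and -0.32 ± 0.06 for FRAS1. Of 10 collagen receptors 5 rose and 4 fell (median 0.84), among them the integrin chains ITGA2 (3.32 ± 0.04), ITGA1 (3.32 ± 0.10) and ITGB1 (2.05 ± 0.03), the type III collagen receptor ADGRG1 (-2.20 ± 0.03), the discoidin receptors DDR1 (-0.27 ± 0.03) and DDR2 (-1.56 ± 0.14), and MRC2 (-0.85 ± 0.05). Of 7 collagen-cleaving proteases 5 rose and 2 fell (median 1.09), with MMP9 at 137 ± 2.99 CPM in the knockout and 4 counts in WT, MMP14 up by 3.49 ± 0.04, MMP16 at -1.58 ± 0.07 and FAP at -2.77 ± 0.27. Of 6 matrix proteoglycan and related genes 2 rose, BGN (1.41 ± 0.21) and LUM (0.47 ± 0.15), and 4 fell, VCAN (-2.08 ± 0.04), DCN (-7.88 ± 0.27), PRELP (-3.62 ± 0.44) and ECM2 (-3.06 ± 0.90). ECM2 had 0 and 0.717 CPM in KO1 and 0 and 0.0577 CPM in KO2, against 0.582 and 1.27 CPM in WT, so that 1 KO1 library lay above a WT library. Its fall had no call in KO1 vs WT (-1.45, edgeR adjusted p = 0.145).

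Added STAMBP or CFLAR was compared with the knockout mean, where 77.9% of all genes were called in KO+STAMBP vs KO and 78.0% in KO+CFLAR vs KO. Among the 41 collagens, KO+STAMBP vs KO gave 13 rises and 23 falls (beside 40.1% and 37.8% of all genes), and KO+CFLAR vs KO gave 13 and 24 (beside 40.0% and 38.0%). At 2-fold or more these were 10 rises and 17 falls in KO+STAMBP vs KO (all genes 24.9% and 21.5%) and 10 and 18 in KO+CFLAR vs KO (all genes 25.1% and 21.6%). These comparisons share the knockout libraries with KO vs WT, so their values are given side by side only.

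COL17A1 was -9.31 ± 0.11 in KO+STAMBP vs KO and -9.50 ± 0.10 in KO+CFLAR vs KO, COL1A1 -6.08 ± 0.05 and -6.36 ± 0.05, COL1A2 -3.92 ± 0.04 and -4.33 ± 0.04, COL8A1 -3.94 ± 0.15 and -4.32 ± 0.15, and COL4A1 -3.30 ± 0.04 and -3.23 ± 0.04, on the log2 scale. Rises were 4.51 ± 0.14 and 4.09 ± 0.14 for COL21A1, 3.55 ± 0.12 and 3.51 ± 0.12 for COL9A1, 3.28 ± 0.26 and 3.11 ± 0.26 for COL8A2, and 2.61 ± 0.14 and 2.42 ± 0.14 for COL11A2. COL4A5 fell a little, by 0.23 ± 0.03 in KO+STAMBP vs KO and 0.17 ± 0.03 in KO+CFLAR vs KO, but with library size alone was -0.022 (edgeR adjusted p = 0.547) and 0.028 (adjusted p = 0.446). COL2A1 was 0.039 ± 0.05 in KO+STAMBP vs KO (edgeR adjusted p = 0.497), a rise of 0.25 with library size alone (adjusted p = 0.000474). In KO+CFLAR vs KO COL2A1 was -0.14 ± 0.05 (edgeR adjusted p = 0.0217), which was 0.059 with library size alone (adjusted p = 0.306), -0.06 without KO+CFLAR replicate 1 (adjusted p = 0.356), -0.13 without KO1 replicate 1 (adjusted p = 0.0522) and -0.11 without KO2 replicate 1 (adjusted p = 0.1).

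Of 14 modification genes, 13 were lower and 1 higher in KO+STAMBP vs KO, and the counts in KO+CFLAR vs KO were 13 and 1. Folding and export genes were lower in 14 and higher in 1 of 15 cases in KO+STAMBP vs KO and 14 and 1 in KO+CFLAR vs KO. Of all genes, 37.8% were lower and 40.1% higher in KO+STAMBP vs KO, and 38.0% and 40.0% in KO+CFLAR vs KO. SERPINH1, the collagen-specific chaperone, was at 65.1 ± 0.385 CPM in KO+STAMBP and 56.2 ± 3.79 CPM in libraries labelled KO+CFLAR, against 292 ± 7.02 CPM in the knockout and 159.7 ± 0.391 CPM in WT. LOX was at 5.96 ± 0.0347 CPM in KO+STAMBP and 4.28 ± 0.34 CPM in libraries labelled KO+CFLAR. Against WT, 12 of the 14 modification genes were lower and 1 higher in KO+STAMBP, beside 18.5% and 16.4% of all genes. In libraries labelled KO+CFLAR 13 were lower and 0 higher than WT, beside 17.9% and 15.8%.

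Rescued cells were then set against WT, where 34.9% of all genes were called in KO+STAMBP and 33.7% in libraries labelled KO+CFLAR. Of the collagens, 11 were higher and 15 lower in KO+STAMBP (beside 16.4% and 18.5% of all genes), and 11 higher and 17 lower in libraries labelled KO+CFLAR (beside 15.8% and 17.9%). At 2-fold or more, KO+STAMBP had 7 higher and 9 lower, beside 3.51% and 3.76% of all genes, and libraries labelled KO+CFLAR had 5 and 9, beside 3.27% and 3.65%. Both comparisons share the WT libraries. Still above WT were COL1A1, by 1.20 ± 0.08 in KO+STAMBP (edgeR adjusted p = 5.92e-08) and 0.91 ± 0.09 in libraries labelled KO+CFLAR (adjusted p = 1.14e-06), COL12A1, by 1.44 ± 0.20 and 1.62 ± 0.19, COL5A3, by 2.40 ± 0.38 and 2.45 ± 0.37, and COL18A1, by 0.74 ± 0.06 and 0.61 ± 0.06. COL17A1 had no call, with 0.60 ± 0.50 in KO+STAMBP (adjusted p = 0.424) and 0.41 ± 0.50 in libraries labelled KO+CFLAR (adjusted p = 0.61), at levels of a few counts per library. COL24A1, at 1.02 ± 0.26 and 1.01 ± 0.26, lost its call in both without WT replicate 1 (0.78, adjusted p = 0.0728, and 0.77, adjusted p = 0.0758).

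**Figure D5:**
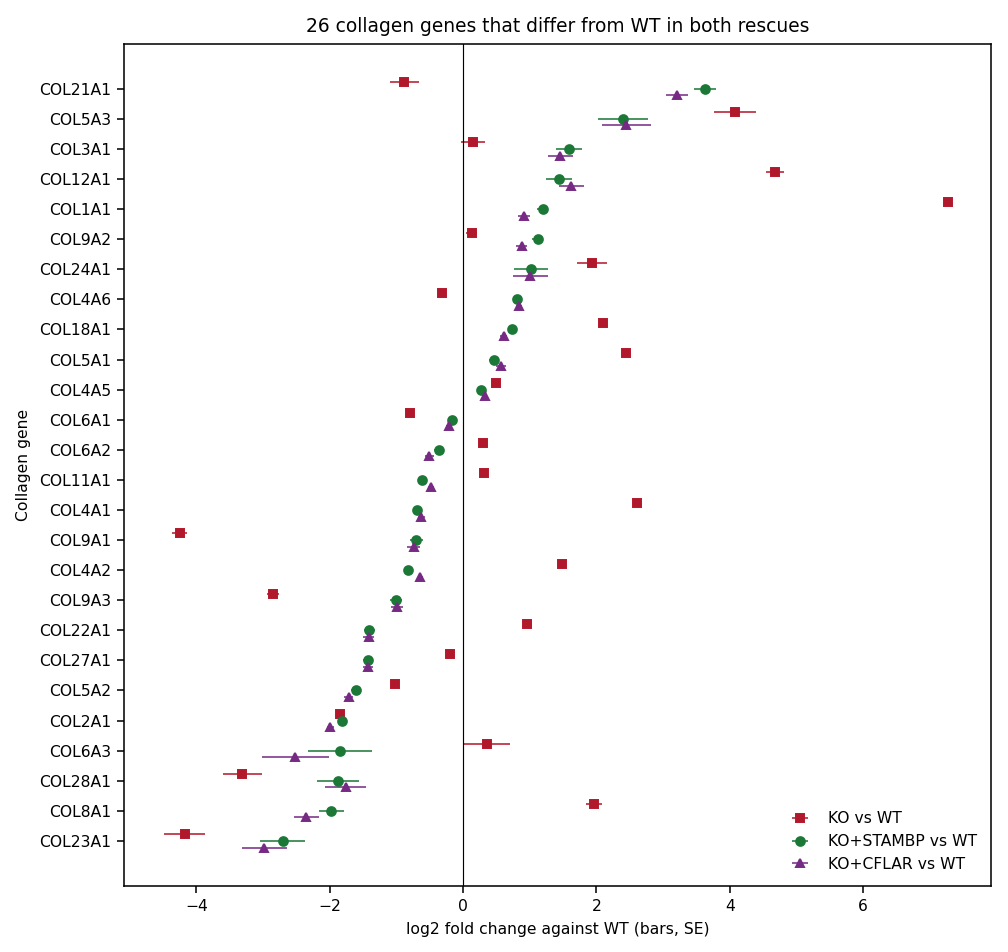
log2 fold change against WT of the 26 collagen genes called in both rescues, for the knockout (squares), KO+STAMBP (circles) and KO+CFLAR as labelled (triangles). Bars are the SE taken from the test, which understates counting error where a group has few counts. For COL21A1, COL3A1, COL9A2 and COL4A6 the rescue symbols lie right of both WT (0) and the knockout. They lie left of both for COL8A1, COL22A1, COL27A1, COL6A3, COL4A1, COL4A2, COL11A1, COL6A2 and COL5A2.

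Several chains left the range spanned by knockout and WT. COL21A1, a FACIT chain (ENSG00000124749, chr6:56056590-56394094), had 26.2 and 25.7 CPM in KO+STAMBP, 20.1 and 18.6 CPM in libraries labelled KO+CFLAR, 0.847 to 1.67 CPM in the knockout and 1.804 and 2.35 CPM in WT. The rescues stood above every other library, and the log2 change against WT was 3.63 ± 0.16 in KO+STAMBP (edgeR adjusted p = 4.62e-10) and 3.21 ± 0.16 in libraries labelled KO+CFLAR (adjusted p = 1.87e-09). COL3A1 had 12.1 and 14.4 CPM in KO+STAMBP and 12.99 and 11.2 CPM in libraries labelled KO+CFLAR, above every knockout and WT library, and was 1.59 ± 0.19 and 1.46 ± 0.19 against WT (adjusted p = 1.29e-05 and 2.95e-05). COL9A2 (1.12 ± 0.08 and 0.88 ± 0.08) and COL4A6 (0.81 ± 0.04 and 0.84 ± 0.04) were likewise above both. On the low side, COL8A1 had 1.29 and 1.34 CPM in KO+STAMBP and 1.12 and 0.907 CPM in libraries labelled KO+CFLAR (-1.98 ± 0.19 and -2.35 ± 0.19 against WT), below every WT and knockout library. Against WT, COL22A1 was -1.41 ± 0.08 and -1.41 ± 0.08, COL27A1 -1.43 ± 0.08 and -1.43 ± 0.08, and COL4A1 -0.69 ± 0.06 and -0.63 ± 0.05. COL4A2 was -0.83 and -0.64, COL11A1 -0.62 and -0.48, and COL6A2 -0.37 and -0.51 against WT, also below every WT and knockout library. Markers of choroid plexus and cortical hem were higher than WT in 8 of 8 cases in KO+STAMBP, beside 16.4% of all genes. In libraries labelled KO+CFLAR 8 of 8 were higher than WT, beside 15.8%. These markers summed to 642 to 646 CPM in KO+STAMBP, 545 to 552 CPM in libraries labelled KO+CFLAR, 44.3 to 47.6 CPM in the knockout and 107.5 to 108.3 CPM in WT. Their part in the rescue levels was not tested.

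Other chains were lower than WT in the rescues, and those named here except COL6A3 were lower in the knockout as well. COL2A1 had 58.4 and 58.4 CPM in KO+STAMBP and 48.8 and 54.2 CPM in libraries labelled KO+CFLAR, and was -1.81 ± 0.05 and -1.99 ± 0.05 against WT (edgeR adjusted p = 8.3e-12 and 3.04e-12). COL5A2 was lower still than in the knockout, with 31.3 and 30.7 CPM in KO+STAMBP and 29.7 and 27.8 CPM in libraries labelled KO+CFLAR (-1.61 ± 0.07 and -1.72 ± 0.07 against WT). COL23A1 was -2.71 ± 0.33 and -2.99 ± 0.34 and COL28A1 -1.88 ± 0.31 and -1.76 ± 0.30 against WT. COL6A3, which had no call in KO vs WT, had 0.206 and 0.535 CPM in KO+STAMBP and 0.2795 and 0.181 CPM in libraries labelled KO+CFLAR, or -1.85 ± 0.48 and -2.52 ± 0.51 against WT, and the value for KO+STAMBP had no call without KO+STAMBP replicate 1 (-1.32, edgeR adjusted p = 0.0917) or WT replicate 2 (-1.64, adjusted p = 0.0622).

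Between the rescues few genes of any kind differed, and few collagens. In KO+CFLAR vs KO+STAMBP, 1 of 41 collagen genes was lower and 0 were higher by edgeR's quasi-likelihood test, beside 1.09% of all genes (0.627% higher and 0.461% lower). The lower one was COL1A2 (-0.41 ± 0.04, adjusted p = 0.00114). At an unadjusted p under 0.05, 2 were higher and 6 lower, and DESeq2 called 1 higher and 1 lower. COL1A2 had 50.6 and 53.02 CPM in libraries labelled KO+CFLAR, below the 68.1 and 69.3 CPM of KO+STAMBP. COL1A1 was at -0.28 ± 0.07 without a call (adjusted p = 0.0885).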

How the data were processed

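Whole-number counts per gene were deposited for 60898 rows, with no normalization by the authors. Per the submitters' processing notes, the tools were fastp 0.20.0, RSEM 1.2.4 and DESeq2, on the build hg38 or GRCh38, listed without role. Annotation, rounding and strand setting are not given in the sources used. Of the 44 collagen rows, 14 carry an assembled locus name (MSTRG), whose counted exons may differ from GENCODE 29, the source of positions and exon lengths. Exons of 3 collagen genes overlap another gene on the same strand and of 9 on the opposite strand.

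A quasi-likelihood model was fitted to the counts with edgeR 4.0.16 (R 4.3.3, limma 3.58.1), with TMM factors and a mean per group over all 10 libraries (5 residual degrees of freedom). After filterByExpr, 21063 genes with 99.9% of counts remained, all 41 members among them. KO vs WT weighted KO1 and KO2 equally. The SE is the size of the log2 change over the root of F, a scale taken from the test rather than a direct standard error. For large changes with few counts in 1 group it is smaller than counting error, as for COL17A1 with 11 counts in WT. Chi-square per gene between the libraries of a group was 1.91 to 3.43, so none was taken as a duplicate. Intervals and the 3-count floor cover counting error only. The fit was also run on counts simulated from WT means with few genes changed in the knockout. That setting does not cover a knockout in which 76.2% of genes were called.

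Any member could be named, and per-library values or ranges are given for those of at least 10 CPM or 2-fold from WT in a rescue, among others. Pathway genes are up to 4 per list by adjusted p, plus those against the list's majority; SERPINH1 was added after its values were seen. Members and lists were chosen with earlier results of these data known. Promoters are from RefSeq (GRCh38.p14), whose table held 32 of the 44 genes. Alternatives were DESeq2 1.42.0, median-of-ratios factors, library size alone, no low-count filter or at least 50 counts in 2 libraries (also as member rule), a replicate block, leaving out each library, fitting only the groups compared, KO1 or KO2 as baseline, a wider basement membrane class, and longest transcripts as lengths.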

Additional observations from a re-analysis of the deposited data

Results flagged for a closer look

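COL17A1 was at 298 CPM in KO2 replicate 1, apart from the other knockout libraries at 284 to 285 CPM. The gap was 0.916 of the range, above Dixon's 95% critical value for 4 samples. Of 41 genes examined in the 4 knockout libraries this was the one so far apart. Chance gives about 1 in 20 for each gene, so 1 among 41 is no more than chance gives.

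COL1A2 differed between the rescues, with a log2 change of -0.41 in the libraries labelled KO+CFLAR vs KO+STAMBP (edgeR adjusted p = 0.00114). It was lower in 2 of 2 libraries.

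COL6A5, a type VI chain under the member rule, had 15 counts in the 4 knockout libraries together and 0 in the libraries of both rescues and WT.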

How the results depend on the processing

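Of the collagen calls, 32 of 36 in KO vs WT, 32 of 36 in KO+STAMBP vs KO, 31 of 37 in KO+CFLAR vs KO, 23 of 26 in KO+STAMBP vs WT and 27 of 28 in KO+CFLAR vs WT held under every alternative in which the gene was tested. Low-count genes, such as COL14A1 and COL6A6, were not tested with the filter of at least 50 counts in 2 libraries. COL15A1 in KO+STAMBP vs KO (-0.74 ± 0.32, edgeR adjusted p = 0.0474) was lost under most of them. Replicate numbers did not pair the libraries (r of -0.0261 to 0.0754 over 10 group pairs), and with the replicate block KO vs WT gave 20 higher and 16 lower and KO+STAMBP vs KO gave 13 and 22. Counting COL7A1, COL15A1 and COL18A1 as basement membrane gave 6 higher in KO vs WT. In KO+CFLAR vs KO+STAMBP, DESeq2 and no low-count filter gave 1 higher, and no low-count filter and only the groups compared gave 2 lower. With library size alone, COL3A1 was -0.025 and COL9A2 -0.049 in KO vs WT, COL14A1 0.015 in KO+STAMBP vs WT, and COL4A5 0.028 and COL2A1 0.059 in KO+CFLAR vs KO. COL19A1 was -0.18 in KO+STAMBP vs KO with KO1 as baseline. COL4A4 in KO+CFLAR vs KO was -0.0094 with median-of-ratios factors, -8e-04 with DESeq2 and -0.061 with KO2 as baseline. The cause was not tested. Leaving out each library in turn, collagen counts spanned 20 to 21 higher and 14 to 16 lower in KO vs WT, 12 to 14 higher and 21 to 22 lower in KO+STAMBP vs KO, 12 to 13 higher and 22 to 24 lower in KO+CFLAR vs KO, 11 to 12 higher and 13 to 16 lower in KO+STAMBP vs WT, 10 to 11 higher and 17 lower in KO+CFLAR vs WT, 0 to 1 higher and 1 lower in KO+CFLAR vs KO+STAMBP. Values without a call turned sign when 1 library was left out: COL4A4 (-0.43 to 0.11) and COL9A2 (-0.027 to 0.30) in KO vs WT, and COL4A4 (-0.079 to 0.15) in KO+CFLAR vs KO, and COL20A1 (-0.15 to 0.36), COL14A1 (-2.03 to 0.77) and COL16A1 (-0.061 to 0.076) in KO+STAMBP vs WT, and COL4A4 (-0.41 to 0.14), COL20A1 (-0.035 to 0.61), COL8A2 (-0.24 to 0.092), COL17A1 (-0.36 to 0.92), COL16A1 (-0.065 to 0.073) and COL7A1 (-0.12 to 0.17) in KO+CFLAR vs WT. Depth limits COL6A6 and COL14A1 to fewer than 10 counts in each rescue and WT library.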
